A study of Papio hamadryas with 11 samples.

Results

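miR-103a-3p and miR-107 are near-identical microRNAs (miRNAs) whose precursors lie in introns of pantothenate kinase (PANK) genes, the enzymes that start coenzyme A synthesis. They are described here in near-term fetal baboon liver, in fetuses of obese and of control mothers. Both (hsa-miR-103a-3p and hsa-miR-107 in the files) were picked by name from the table of known miRNAs, so 2 of the 1921 mature names in that table (645 of them with reads) make up this account. Small RNA was sequenced from bulk liver of 11 fetuses of Papio hamadryas at 0.9 of gestation. The MO group held 5 fetuses of obese mothers (3 female, 2 male) and the CON group 6 fetuses of control mothers (3 female, 3 male). The labels name no strain, agent or genetic change, and do not say how obesity arose or how the mothers were fed. Livers are named by maternal group and label replicate, such as MO 1. No label numbers the animals, so the spread behind each p-value is that between samples, which may be technical.

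A miRNA is cut from a hairpin precursor and guides silencing complexes to messenger RNAs, mainly by pairing through the seed at its 5′ end. miR-103 and miR-107 carry the same seed and differ by a single base near the 3′ end, so they are expected to share most targets. In mice, both have been reported to be raised in obese animals and to lower insulin sensitivity in liver and fat, with caveolin-1, a stabiliser of the insulin receptor, as a target. They also target Dicer, the enzyme that makes most miRNAs, and belong to the wider group of miR-15 and miR-107, which is defined by a shared core near the 5′ end. miR-103a is in addition widely used as a reference in PCR assays of other miRNAs. Mature sequences were not used here.

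Library depth differed between the groups. Reads on known miRNAs, with each name taken from 1 row, numbered 660569 to 767137 per MO library and 247288 to 319919 per CON library, which is 2.52 times as many on average in MO (exact permutation test over 462 splits, two-sided p = 0.00216, the smallest this design allows, n = 5 and 6). The library numbers in the labels run from 67 to 71 in MO and from 55 to 60 in CON. A library batch and maternal obesity therefore cannot be told apart. Of the 6 hepatocyte miRNAs listed none had 0 reads, and the defining one, miR-122-5p, stood at 103666 to 184492 CPM in MO and 139041 to 212521 CPM in CON. CPM are read counts scaled to a common library size with TMM, which corrects depth for differences in composition. MO 2 stood apart in the 4 skeletal muscle miRNAs listed, whose summed level was 957.6 CPM there and at most 67.8 CPM in any CON liver. MO 1 had 58.9 CPM of miR-1 and 31.7 CPM of miR-133a, above the CON maxima of 45.2 and 25.8 CPM. Its miR-133b and miR-206 (1.5 and 3.0 CPM) lay under the CON maxima of 7.4 and 3.6 CPM. Without MO 2 the log2 fold changes given below were 0.10 for miR-103a-3p and -0.06 for miR-107. In bulk tissue, fewer cells of a type and less RNA per cell cannot be told apart.

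The table held 6 rows of this name family. miR-103a-3p stood on both of its precursors, mir-103a-2 with 8668 reads over the 11 libraries and mir-103a-1 with 8609. The mature miRNA is the same from either precursor, so a read can be counted on both rows, and the row with more reads (mir-103a-2) was used. Only 1 to 10 reads per library were extra on the mir-103a-2 row, so the output of the PANK3 and PANK2 loci that host mir-103a-1 and mir-103a-2 could not be separated. miR-107, hosted by PANK1, had a single row with 1995 reads. The opposite arm miR-103a-2-5p had 2 reads in all, both in MO 4. miR-103b, annotated on the strand opposite to miR-103a, had 0 reads on either of its rows. A count of 0 among 5268880 reads allows up to 0.569 CPM, for counting error only. All but 2 reads of the family therefore came from the 3p arms of miR-103a and miR-107, and both passed the default expression filter of edgeR, which kept 218 miRNAs.

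miR-103a-3p ranked 49 by level among the 645 miRNAs with reads, and ranged from 1455 to 1857 CPM over the livers. Its reads numbered 1172, 1310, 1214, 1306 and 1010 in MO 1 to MO 5, and 414, 395, 551, 419, 415 and 462 in CON 1 to CON 6. After scaling these were 1769, 1728, 1586, 1772 and 1585 CPM in the MO livers, against 1559, 1455, 1857, 1543, 1482 and 1496 CPM in the CON livers. The groups overlapped: CON 3 had the highest level of all 11 livers, while the other 5 CON livers lay below every MO liver. As a share of the library totals given above, miR-103a-3p held 0.153% in MO 5 to 0.182% in MO 2, against 0.133% in CON 2 to 0.172% in CON 3, with exact 95% binomial intervals of 0.173% to 0.193% in MO 2 and 0.121% to 0.147% in CON 2. These intervals, like others below, cover counting error only. The means were 1688 ± 94.97 CPM in MO (SD, n = 5) and 1565 ± 147.8 CPM in CON (SD, n = 6).

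The difference in miR-103a-3p between the maternal groups did not pass the test. Its log2 fold change was 0.11 (SE 0.11, edgeR quasi-likelihood test, Benjamini-Hochberg adjusted p = 0.536), and the 95% interval of the fold ran from 0.922 to 1.26. Without CON 3 the log2 value was 0.17 (adjusted p = 0.318 in edgeR). On the authors' deposited normalised scale, which uses no TMM and divides by the reads of all precursor rows (279582 to 869364 per library), so that a read listed on several rows counts each time, CON 3 (1490) lay just under CON 4 (1499), and MO 2 was highest of all (1607). The level there was 1474 ± 103.4 in MO (SD, n = 5) and 1356 ± 127 in CON (SD, n = 6).

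miR-107 was several times scarcer and varied more. Its reads numbered 232, 265, 322, 311 and 201 in MO 1 to MO 5, and 124, 81, 136, 140, 88 and 95 in CON 1 to CON 6. The scaled levels were 350.2, 349.5, 421, 422 and 315 CPM in the MO livers, against 467, 298, 458, 515, 314 and 308 CPM in the CON livers, in the same orders. All MO levels lay within the range of the CON livers. In CON, miR-107 was higher in CON 1, CON 3 and CON 4 than in the other livers. Its share of those totals was lowest at 0.0304% in MO 5 and highest at 0.0436% in MO 3 among MO livers, against 0.0274% in CON 2 (exact 95% binomial interval 0.0217% to 0.0340%) and 0.0566% in CON 4 (0.0476% to 0.0668%) at the ends of the CON range. The means were 372 ± 47.5 CPM in MO (SD, n = 5) and 394 ± 97.1 CPM in CON (SD, n = 6).

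The log2 fold change of miR-107 between the groups was -0.08 (SE 0.17, adjusted p = 0.846 in edgeR), with a 95% interval of the fold from 0.732 to 1.22. Without CON 4, the shallowest library and the highest in miR-107, it was -0.0063 (adjusted p = 0.980 in edgeR). Without MO 5 it was 0.0035 (adjusted p = 0.994 in edgeR). On the authors' deposited normalised scale, miR-107 stood at 325 ± 46.3 in MO (SD, n = 5) and 343 ± 96.4 in CON (SD, n = 6).

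**Figure D1:**
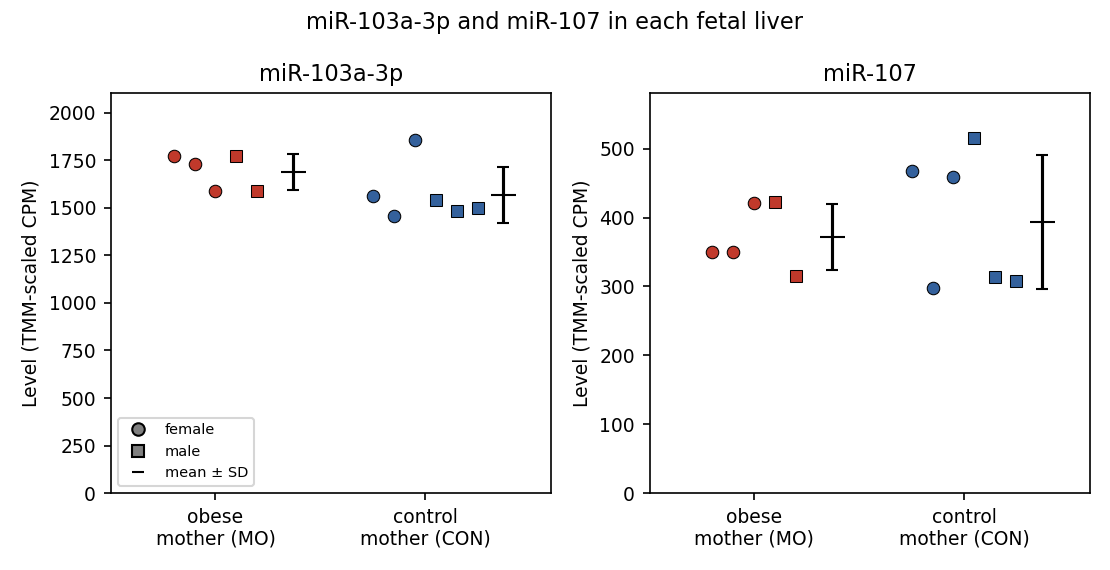
Level of miR-103a-3p (left) and miR-107 (right) in each fetal liver, in TMM-scaled CPM on linear axes from 0; circles are females, squares are males, and the bars give mean ± SD for MO (n = 5) and CON (n = 6). The MO livers span 1585 to 1772 CPM for miR-103a-3p and 315 to 422 CPM for miR-107, and in both panels they overlap the CON livers.

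Neither miRNA was among those that differed with maternal obesity. Of the pair, 0 of 2 passed the threshold of an adjusted p of 0.05 in edgeR (0 in DESeq2, 0 in limma-voom and 0 at an unadjusted p under 0.05), where 11% of the 218 tested miRNAs did (4.59% higher and 6.42% lower). Likewise 0 of 2 had groups that did not overlap, against 8.26% of those tested. The absolute log2 value of miR-103a-3p was larger than that of 28.0% of tested miRNAs and that of miR-107 larger than that of 21.1%. The median absolute log2 value over all tested was 0.23. The upper ends of the 95% intervals lie at 1.26-fold for miR-103a-3p and 1.22-fold for miR-107 in this TMM fit. They depend on the processing. With a replicate block the log2 values were 0.10 and -0.12, and with no filter on low counts 0.18 (SE 0.13) and -0.01 (SE 0.18).

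The maternal groups were also compared within each sex, and neither miRNA passed in females or in males. In females, miR-103a-3p stood at 1694 ± 95.998 CPM in MO and 1624 ± 208 CPM in CON (SD, n = 3 each), a log2 fold change of 0.06 (SE 0.15, adjusted p = 0.885 in edgeR). In males it stood at 1678 ± 132 CPM in MO (SD, n = 2) and 1507 ± 31.7 CPM in CON (SD, n = 3), a log2 fold change of 0.16 (SE 0.16, adjusted p = 0.625 in edgeR). The levels of miR-103a-3p overlapped in females, whereas both MO males lay above the 3 CON males, as 34.4% of tested miRNAs were also without overlap in males (28.4% in females). For miR-107, females had 373 ± 40.9 CPM in MO and 408 ± 94.9 CPM in CON (SD, n = 3 each, log2 -0.13, adjusted p = 0.830 in edgeR). Male livers had 369 ± 75.2 CPM of miR-107 in MO (SD, n = 2) and 379 ± 118 CPM in CON (SD, n = 3, log2 -0.04, adjusted p = 0.990 in edgeR). The levels of miR-107 overlapped in both sexes. Over all tested miRNAs, 5.96% passed in females and 4.13% in males. The maternal effect in males minus that in females was 0.09 on the log2 scale for each miRNA, with 95% intervals from -0.39 to 0.58 for miR-103a-3p (adjusted p = 0.942) and from -0.71 to 0.89 for miR-107 (adjusted p = 0.976, both in edgeR). When only the total count was scaled for, the sign of both differences turned, to -0.18 and -0.19.

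Males and females were also compared directly, with maternal group in the model. miR-103a-3p averaged 1576 ± 117 CPM in males (SD, n = 5) and 1659 ± 150.2 CPM in females (SD, n = 6), a log2 difference of -0.07 with TMM (95% interval -0.30 to 0.17, adjusted p = 0.952 in edgeR) and 0.0027 with total counts. The miR-107 averages were 374.96 ± 91.8 CPM in males and 391 ± 68.01 CPM in females (SD, n = 5 and 6), again a log2 difference of -0.07 (95% interval -0.45 to 0.32, adjusted p = 0.956 in edgeR). Over all 218 tested miRNAs, 0% passed in edgeR between males and females, with 22 at an unadjusted p under 0.05, and DESeq2 and limma-voom called 0 as well. For the difference of the maternal effects, all of these tools called 0, with 14 at an unadjusted p under 0.05 in edgeR.

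**Figure D2:**
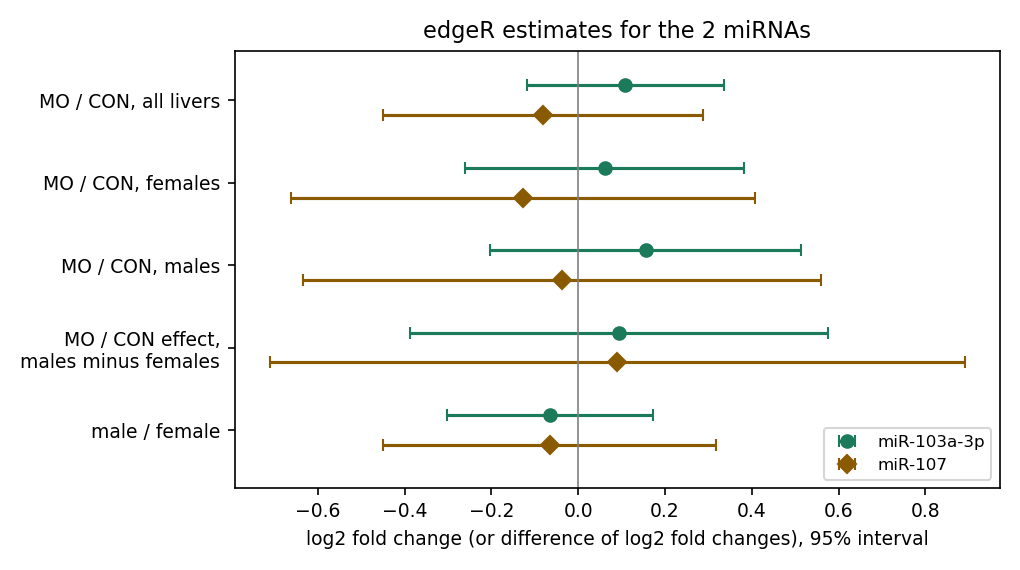
edgeR log2 estimates with 95% intervals for miR-103a-3p (circles) and miR-107 (diamonds) in 5 comparisons; the fourth is a difference of log2 fold changes. Every interval includes 0, and those of miR-107 are the wider ones.

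miR-103a-3p varied little between livers. Its coefficient of variation (the SD as a percent of the mean) over the 11 livers was 8.42%, the rank of 4 from the lowest among the 218 tested miRNAs, whose median was 24.9%. Counting of reads alone would give 4.04%. The 3 tested miRNAs with a smaller value, miR-30d-5p (6.63%), miR-30e-5p (7.67%) and miR-151a-3p (7.99%), were all more abundant. Of the 48 more abundant tested miRNAs, only these 3 had a smaller coefficient of variation. Within the groups, it was 5.63% in MO (rank 7) and 9.44% in CON (rank 14), and the pooled rank also reflects that its group means were close. With each library left out in turn it ran from 7.39% (without CON 3) to 8.83%, and the rank from 2 to 7. Scaled by total counts alone it was 8.43%.

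miR-107 did not share this narrow spread. Its coefficient of variation was 19.8%, at rank 62 of 218, where counting alone would give 8.32%. It was 12.8% in MO (rank 76) and 24.7% in CON (rank 105). Without CON 4 it was 17.6%. Other miRNAs used as PCR references, chosen after the values of miR-103a-3p had been seen, varied more than miR-103a-3p: miR-93-5p by 11.9%, miR-423-5p by 19.3%, miR-423-3p by 19.4%, miR-16-5p by 21.4% and miR-191-5p by 22.5%. These ranks are a description, with no test, and depend in part on abundance, since counting spreads scarce miRNAs more.

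**Figure D3:**
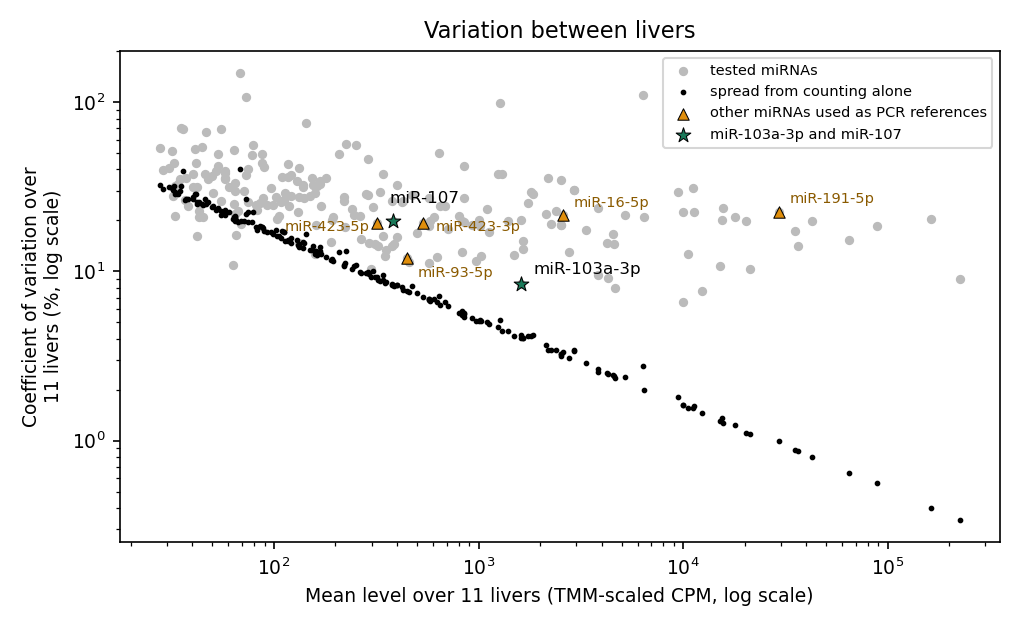
Coefficient of variation over the 11 livers against mean level, both on log scales, for the 218 tested miRNAs (grey), with the spread that counting alone would give for each (black). miR-103a-3p lies at 8.42% and miR-107 at 19.8%; triangles mark 5 other miRNAs used as PCR references, which lie between 11.9% and 22.5%.

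By level, miR-103a-3p ranked 49 of the 645 miRNAs with reads, and between 45 and 51 in each library. Its neighbours in that order were the endothelial miR-126-3p (1644 ± 222.6 CPM) and miR-654-3p (1643 ± 247 CPM) above it and miR-125a-5p (1618 ± 325 CPM) and miR-25-3p (1495 ± 186 CPM) below it, against 1621 ± 137 CPM for miR-103a-3p itself (SD, n = 11 livers). These 4 were picked as nearest in mean level, so their closeness follows from that choice. Each was above miR-103a-3p in 4 to 8 of the 11 livers. miR-107 ranked 89, and between 75 and 101 in each library. Its neighbours, picked in the same way, were miR-425-5p (399.9 ± 63.7 CPM), miR-140-3p (387 ± 56.4 CPM), miR-181b-5p (379 ± 53.7 CPM) and miR-378c (378.3 ± 98.7 CPM). miR-107 itself stood at 384 ± 75.8 CPM (SD, n = 11). A level counts whole mature miRNAs of similar length, so no length scaling was applied, and differences in cloning efficiency between sequences were not tested.

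Since the members differ by a single base, the balance between them is set out per liver. miR-107 made up 16.5%, 16.8%, 20.96%, 19.2% and 16.6% of the reads of the pair in MO 1 to MO 5, and 23.0%, 17.0%, 19.8%, 25.0%, 17.5% and 17.1% in CON 1 to CON 6. The highest shares were in CON 4 and CON 1, and the ranges of the groups overlapped. Exact 95% binomial intervals for the highest and the lowest share were 21.5% to 28.9% (CON 4) and 14.6% to 18.6% (MO 1). These 2 intervals do not overlap, but the pair was picked as the extremes and they cover counting error only. There were 22.1 ± 3.01 reads of miR-107 per 100 of miR-103a-3p in MO (SD, n = 5) and 25.1 ± 5.47 in CON (SD, n = 6). Reads that end before the differing base, or that carry an error at it, may have been assigned to either miRNA. How many mismatches were allowed is not given here.

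The summed level of both was 2060 ± 112 CPM in MO (SD, n = 5) and 1959 ± 216 CPM in CON (SD, n = 6). Fitted as 1 feature, with TMM factors computed anew on the merged rows, their log2 fold change was 0.11 (SE 0.11, 95% interval -0.12 to 0.33). This estimate is therefore not on the scale of the CPM means just given. Nor can it be set directly beside the value of miR-103a-3p alone. Reads assigned to the wrong miRNA of the pair do not alter the sum of the pair. A read counted under both names would, and whether any was is not known.

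**Figure D4:**
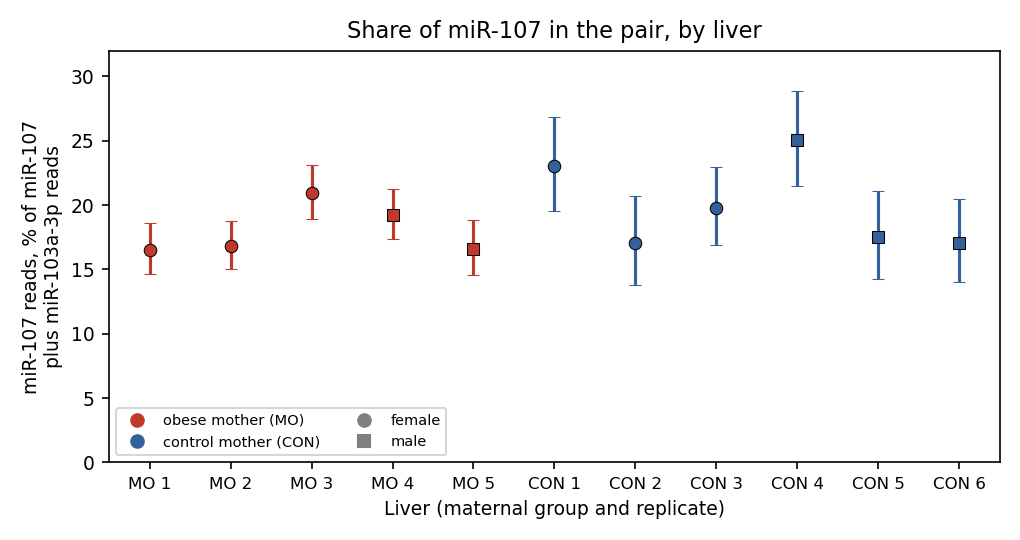
Share of miR-107 among the reads of miR-107 and miR-103a-3p in each liver, in percent, with exact 95% binomial intervals that cover counting error only; circles are females and squares males. The share runs from 16.5% in MO 1 to 25.0% in CON 4, and MO and CON livers overlap.

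A relation between the levels of the pair across livers did not pass the test. On log2 CPM over the 11 livers, Pearson's r was 0.38 (permutation test, p = 0.249) and Spearman's rho 0.52 (permutation test, p = 0.107, 100000 permutations each, 1 relation tested). Leaving out CON 3 and MO 4, the livers farthest from the median of miR-103a-3p, r was 0.14 and rho 0.52. After each liver was set relative to its group mean, r over the 11 livers was 0.49. Depth and scaling are shared by both miRNAs of a library.

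The miRNAs whose levels were most like that of miR-103a-3p over the 11 livers were miR-126-5p (Pearson's r of log2 CPM 0.70), miR-126-3p (0.64), miR-15a-5p (0.63), miR-181c-5p (0.59) and miR-29b-3p (0.59). The arms of miR-126 are endothelial markers, and miR-15a-5p belongs to the same wider group as both. After each liver's values were set relative to its group mean, none of the 5 was among the nearest 5: r was 0.57 for miR-126-5p (rank 7), 0.54 for miR-126-3p (rank 10), 0.52 for miR-29b-3p (rank 13), 0.51 for miR-15a-5p (rank 14) and 0.39 for miR-181c-5p (rank 28). Of the uncentred 5, 3 were also among the nearest 5 after scaling by total counts alone. For miR-107 the nearest were miR-382-3p (0.76), miR-29b-3p (0.69), miR-664-3p (0.68), miR-30a-3p (0.68) and miR-370 (0.63). Set relative to the group means, r was 0.78, 0.77, 0.72, 0.69 and 0.65 in the same order (ranks 1, 2, 3, 4 and 6). After scaling by total counts alone, 4 of the 5 were also among the nearest 5. Without CON 4, the uncentred r for miR-382-3p was 0.65 and for miR-370 0.47. These are likenesses over 11 livers, picked from 217 candidates each and given without a test.

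In the group of miR-15 and miR-107, whose other members include repressors of cell cycle genes, 5 of the 8 other listed miRNAs passed the expression filter, and 0 of these 5 passed the test between MO and CON in edgeR (1 in DESeq2, 1 in limma-voom and 2 at an unadjusted p under 0.05). Over all 218 tested the counts were 24 in edgeR (11%), 29 in DESeq2, 24 in limma-voom and 51 at an unadjusted p under 0.05. The median log2 value of the 5 was 0.26, against -0.05 over all 218 tested. The most abundant, miR-16-5p, stood at 2626 to 3533 CPM in the MO livers and 1675 to 2825 CPM in the CON livers (means 3032 ± 374 and 2232.5 ± 398 CPM, SD, n = 5 and 6). Its log2 value of 0.44 lay just outside the threshold (SE 0.14, adjusted p = 0.0569 in edgeR), and it was inside in 7 of 10 other ways of processing and in 2 of 11 refits without 1 library (adjusted p from 0.0134 in DESeq2 to 0.153). miR-424-5p, which is encoded on the X chromosome in human, stood at 235 ± 29.6 CPM in MO and 290.5 ± 31.0 CPM in CON (log2 -0.31, adjusted p = 0.190 in edgeR). miR-15a-5p (log2 0.26), miR-15b-5p (-0.18) and miR-195-5p (0.27) did not pass, miR-497-5p and miR-503 were below the filter, and miR-646 had 0 reads.

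**Figure D5:**
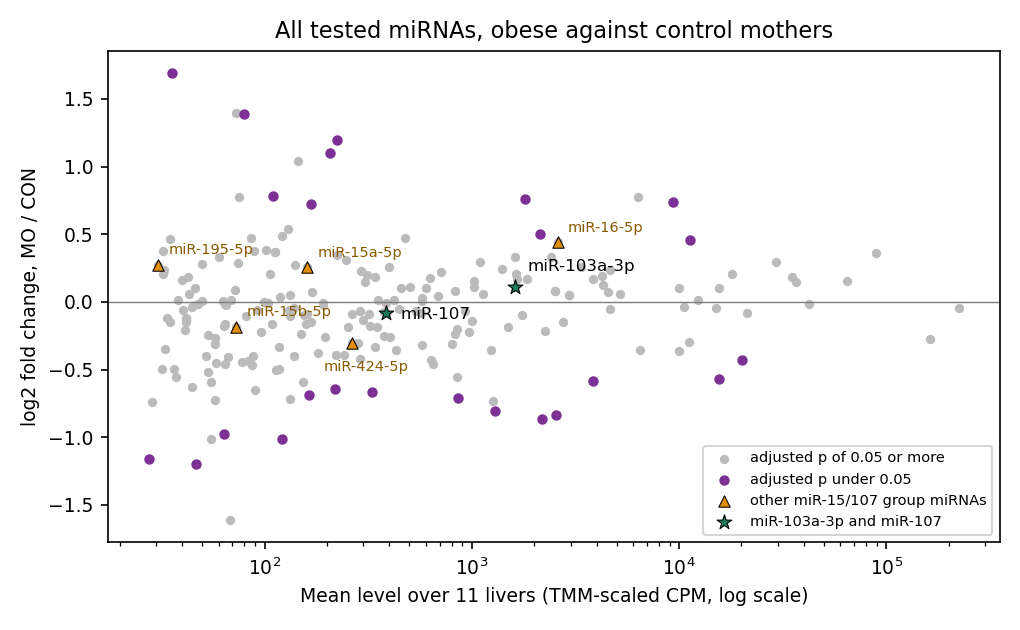
log2 fold change MO over CON against mean level (log scale) for the 218 tested miRNAs; purple points have an adjusted p under 0.05 in edgeR, stars are miR-103a-3p and miR-107, and triangles the 5 other tested miRNAs of the miR-15 and miR-107 group. miR-103a-3p (0.11) and miR-107 (-0.08) lie near 0, and miR-16-5p (0.44) lies above them.

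Of 28 other miRNAs linked to insulin action or glucose in the literature, 22 passed the expression filter, miR-15b-5p, miR-195-5p and miR-424-5p being in this list too. Between MO and CON, 1 rose, 1 fell and 20 did not pass, with a median log2 value of -0.03. Over all tested miRNAs 4.59% rose and 6.42% fell, so the share of this list was near that of all. The one that rose was miR-126-5p, from the endothelial EGFL7 gene, at 13248 ± 1795 CPM in MO and 9663 ± 1773 CPM in CON (SD, n = 5 and 6, log2 0.46, adjusted p = 0.0476 in edgeR). It passed in 6 of 10 other ways of processing and in 3 of 11 refits without 1 library, with adjusted p from 0.00785 to 0.183. The 2 endothelial markers listed are the arms of miR-126 themselves, neither at 0 in the files. Their summed level was 12643 to 17097 CPM in MO and 9476 to 14290 CPM in CON, and the part of endothelial cells in this result was not tested. The one that fell was miR-378a-3p, from the gene of PGC-1beta, a coactivator of oxidative metabolism, at 12372 ± 2444 CPM in MO and 18339 ± 1753 CPM in CON (SD, n = 5 and 6, log2 -0.57, adjusted p = 0.0122 in edgeR). miR-143-3p, reported in mice to be raised in obese liver and to impair insulin signalling there, stood at 87658 to 125473 CPM in MO and 73173 to 89680 CPM in CON (log2 0.36, adjusted p = 0.0534 in edgeR). It passed in 5 of 10 other ways of processing and in 3 of 11 refits without 1 library (adjusted p from 0.0158 to 0.170). It also heads the list of 6 mesenchymal markers, none with 0 reads, of which 1 rose (miR-145-3p) and 5 did not pass. Of the 6, 2 had negative values, miR-145-5p (log2 -0.09) among them. Their summed level, mostly miR-143-3p itself, was 90686 to 129885 CPM in MO and 76074 to 93047 CPM in CON. The part of mesenchymal cells in the level of miR-143-3p was not tested. Another miRNA reported in mice to be raised in obese liver, miR-802, had 0 reads. The hepatocyte miR-122-5p had a log2 value of -0.28 (adjusted p = 0.3002 in edgeR). Of the 6 hepatocyte markers listed, 1 fell (miR-885-5p, log2 -1.01, adjusted p = 0.0037 in edgeR) and 5 did not pass, 3 of the 6 having negative values.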

How the data were processed

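RNA from Qiagen miRNeasy columns was made into TruSeq small RNA libraries and sequenced in multiplexed lanes of a Genome Analyzer IIx, per the labels' protocols. The deposited workbook, named for miRDeep2, held unscaled counts of reads for each pair of mature and precursor names, and columns marked as normalised per the file headers, a signal whose values equal reads per total of all 2234 precursor rows, larger than the totals used here. Build hg18 stands in the submitters' processing notes. miRNA names are human, and no source used here gives the aligner or its settings. The known table's 2234 rows appear again below themselves (4468 in all) and were used 1 time. A name listed with more than 1 precursor kept its row of most reads (313 others were left out). The table of predicted miRNAs was not used.

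Counts were tested with edgeR 4.0.16 (R 4.3.3, quasi-likelihood, TMM, default filter, Benjamini-Hochberg over all miRNAs tested, threshold 0.05), after a test on simulated data. Maternal groups were compared over all livers, sexes in a condition by sex model, and males with females adjusted for condition. Alternatives used RLE factors, total counts, no filter, DESeq2 1.42.0, limma-voom (limma 3.58.1), thinning to 247288 reads, a table without miR-192-5p, summed precursor rows, sex, a replicate block, and each library left out. Log2 CPM used a prior count of 2. Members, lists and the naming rule were chosen with earlier results of these data known. The rule named both miRNAs, their nearest neighbours in level and pattern, and the 2 most abundant and 2 lowest-p tested miRNAs of each list. Of the cell type lists only what bears on the results is given.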

Additional observations from a re-analysis of the deposited data

Results flagged for a closer look

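In 3 of the 52 sets of livers examined (2 groups for each measure or miRNA named), 1 liver lay far from the others of its group by Dixon's test. Chance alone flags about 1 in 20. CON 3 had 1857 CPM of miR-103a-3p, where the other CON livers lay between 1455 and 1559 CPM. On the authors' deposited scale, which divides by the reads of all precursor rows, it was 1490, and CON 4 was higher (1499). CON 4 had 103.1 CPM of miR-382-3p, the miRNA most like miR-107. MO 1 had 1334.5 CPM of miR-654-3p, a neighbour of miR-103a-3p in level.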

How the results depend on the processing

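Neither miRNA passed the threshold in any comparison under any alternative or with any library left out. Between MO and CON, miR-103a-3p kept a positive log2 value throughout (0.10 to 0.18 over 11 alternatives, 0.088 to 0.17 with a library left out). miR-107 itself turned positive only without MO 5 (range -0.14 to 0.0035 with a library left out). The summed feature (0.11), counted among the 11 alternatives, holds mostly miR-103a-3p reads and is scaled anew. It is not an estimate of miR-107. Within sexes, signs near 0 turned. The miR-107 value in males was 0.015 with no filter and 0.10 after thinning (-0.21 to 0.21 with a library left out, positive without CON 4 or MO 5), and that of miR-103a-3p in females ran from -0.018 (without CON 2) to 0.15 with a library left out and from 0.06 to 0.19 over the other alternatives. The difference of effects became -0.18 (miR-103a-3p) and -0.19 (miR-107) with total counts, and -0.0047 and -0.0052 with precursor rows summed. With a library left out it ran from -0.13 to 0.35 for miR-107, negative without CON 1, CON 6 or MO 4. Between males and females, miR-103a-3p was 0.0027 with total counts, and miR-107 ran from -0.16 to 0.046 with a library left out, positive without CON 1 or MO 5. The cause was not tested. Summing precursor rows counts most miR-103a-3p reads 2 times, giving 11.1 (MO) and 12.6 (CON) reads of miR-107 per 100.

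Of all tested miRNAs, 24 passed between MO and CON, 14 after thinning, which leaves fewer MO reads, 15 with the replicate block, and 16 to 26 with a library left out. With the replicate block the log2 value was 0.10 for miR-103a-3p and -0.12 for miR-107. Same-numbered livers did not deviate alike in every pair (correlations from -0.16 to 0.30), and only MO 1 correlated best with its own number, so the numbers were not treated as pairs. The 6 miRNAs named from lists kept their direction in every alternative and refit. In control libraries miR-107 had 81 to 140 reads, for which counting alone would give a coefficient of variation of 9.67% on average. The observed value in CON was 24.7%.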
